A study of Mus musculus with 12 samples.

Results

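The 2′-5′-oligoadenylate synthetase (Oas) family of the mouse was followed through ovaries that lacked or carried Lhx8, a LIM homeobox transcription factor of oocytes. The family was taken as 10 genes, Oas1a, Oas1b, Oas1c, Oas1d, Oas1e, Oas1g, Oas2, Oas3, Oasl1 and Oasl2, out of 19057 genes with a named probe on the array. All 21 probes annotated to these symbols were read, of 45281 on the array. The family was chosen by the array values of Oas1d, already known to be strongly lower in the knockout, so the values of Oas1d between genotypes are given as a description with no test. The other members were tested, and Oas1d was tested with age only.

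Oas enzymes bind double-stranded RNA and make 2′-5′-linked oligoadenylates, which act as second messengers of antiviral defence. Interferon raises the antiviral members of the family, and mice have expanded the Oas1 branch into several neighbouring genes. Oas1d is an oocyte gene of the mouse whose protein lacks synthetase activity, so the family holds antiviral and oocyte members side by side.

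RNA came from ovaries of 4 groups of mice: Lhx8 knockout (KO) at postnatal day 7 (P7), wild type (WT) at P7, KO at P0 and WT at P0. Each group held 3 Illumina BeadChip arrays, described as biological replicates from separate animals, 12 arrays in all, from a colony of mixed 129, C57BL/6 and SF1 background. The KO mice came from an Lhx8 mutant line, and the stretch it lacks is not described in the sources used here. The samples are labelled as oocytes, but the protocols describe whole ovaries.

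Values are z scores, scaled by the authors to mean 0 and SD 1 within each array, then quantile-normalized over the 12 arrays. Differences are in z units and are not fold changes. Errors of group means are SDs and errors of differences are SEs from limma, with n = 3 arrays per group. A gene is said to rise or fall where its Benjamini-Hochberg adjusted p in limma was below 0.05. A probe was taken to be above background where it exceeded the 95th percentile of 1523 probes of olfactory and related receptors on the same array. Between 46.0% and 48.8% of probes were above background on KO P7 arrays, 48.4% to 50.4% on WT P7 arrays, 28.4% to 31.6% on KO P0 arrays and 33.8% to 36.9% on WT P0 arrays. Lhx8 itself averaged −0.24 ± 0.09 in KO and 0.97 ± 0.16 in WT at P7, and 0.25 ± 0.06 in KO and 1.30 ± 0.38 in WT at P0. Its difference was −1.21 ± 0.15 at P7 (adjusted p = 2.51e-05) and −1.05 ± 0.15 at P0 (adjusted p = 2.68e-04), and where its probe lies relative to the deletion is not given.

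All 10 members lie on mouse chromosome 5, and the Oas1 genes form one block. In the RefSeq annotation of assembly GRCm38.p6 the neighbours ran in the order Oas2, Oas3, Oas1e, Oas1c, Oas1b, Oas1f, Oas1h, Oas1g, Oas1a, the pseudogene Gm7573 and Oas1d. Oas1b is annotated there as a transcribed pseudogene. Oasl1 and Oasl2 lie elsewhere on the same chromosome, next to each other but for 1 gene.

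Upstream sequence was on hand for 6 of the 10 members (Oas1a, Oas1c, Oas1g, Oas3, Oasl1 and Oasl2). The windows of Oas1c, Oas1a and Oas1g are shown because Oas1c fell in the KO while Oas1a and Oas1g were never above background, and all hold the same interferon-response core. Each sequence is the 150 bases before the gene's start, 5′ to 3′ on the minus strand of chromosome 5 (RefSeq, GRCm38.p6), at chr5:120812515-120812664 for Oas1c, chr5:120907526-120907675 for Oas1a and chr5:120887614-120887763 for Oas1g. Capitals mark matches on either strand to GAAA, then 2 bases of any kind, then GAAA, the core of the interferon-stimulated response element.
Oas1c: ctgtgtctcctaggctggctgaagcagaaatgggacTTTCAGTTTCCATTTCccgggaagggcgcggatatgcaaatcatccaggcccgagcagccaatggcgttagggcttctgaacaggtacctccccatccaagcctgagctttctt
Oas1a: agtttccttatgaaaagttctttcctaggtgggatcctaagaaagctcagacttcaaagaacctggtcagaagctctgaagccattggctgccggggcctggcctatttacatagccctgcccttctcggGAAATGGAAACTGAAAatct
Oas1g: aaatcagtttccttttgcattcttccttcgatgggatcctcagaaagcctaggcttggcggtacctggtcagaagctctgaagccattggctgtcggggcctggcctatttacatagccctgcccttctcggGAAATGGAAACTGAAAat

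In Oas1a and Oas1g the core lay just before the start and in Oas1c farther up and inverted. The 2 overlapping matches ran over positions −20 to −5 in Oas1a and −18 to −3 in Oas1g on the plus strand of the gene. In Oas1c they ran over −114 to −99 on the opposite strand. Oas1a and Oas1g shared an unbroken run of 73 identical bases around the core, and Oas1c carried 19 of those bases in reverse complement (cgggaaatggaaactgaaa). Oas3 held 1 match at −75 to −66, and the windows of Oasl1 and Oasl2 held none, so 4 of 6 members had the core. Over all 32851 RefSeq windows of the same length (250 bases before to 50 after the start) 3.44% held it on either strand. The same windows were searched on both strands for the E boxes CANNTG (72.3% of all windows) and CAGCTG (16.3%), the homeodomain sites TAATTA (5.29%), TAATTG (8.0%) and TGATTG (14.0%), and the TATA box TATAAA (13.6%). CANNTG was found in Oasl1 and Oasl2 and TATAAA in Oasl2, and the other searches found no match among the members. These matches describe the letters alone.

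Of the 21 probes 8 passed the filter of being above background on at least 3 of the 12 arrays, and they stand for 5 genes: Oas1c (1 probe), Oas1d (2), Oas1e (1), Oasl1 (1) and Oasl2 (3). Another 12 probes were above background on no array, namely the 1 of Oas1a, both of Oas1b, all 5 of Oas1g, both of Oas3 and 2 of the 3 of Oasl1. The probe of Oas2 was above it on 2 arrays and was not tested. Because the array counts mixed ovary, fewer oocytes and less RNA per oocyte cannot be told apart in any difference below. Probe sequences were not used here, so whether close Oas1 paralogues share signal was not tested.

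Oas1d was low in every KO ovary and high in every WT ovary at both ages. Its brighter probe read −0.0959, 0.266 and 0.211 in KO and 4.11, 4.19 and 4.53 in WT at P7. At P0 it read −0.279, −0.402 and −0.0984 in KO and 2.40, 3.51 and 2.11 in WT. The genotypes did not overlap at either age, and the gap between the lowest WT array and the highest KO array was wide in both. In array terms the probe averaged percentile 72.4 in KO and 99.5 in WT at P7, and 59.6 in KO and 96.6 in WT at P0.

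The difference in the brighter Oas1d probe was −4.15 at P7 and −2.93 at P0. In KO it was above background on all 3 arrays at P7 and on none at P0, where the difference against the background level was at least −2.66. Without WT P0 replicate 2, the highest of its group, the P0 difference was −2.51. The P7 difference minus the P0 difference was −1.22 on the quantile-normalized scale, but −0.17 on the deposited scores and −0.11 after median scaling. The second Oas1d probe was dimmer and gave the same picture, with −0.414, −0.428 and −0.401 in KO and 2.56, 2.05 and 2.72 in WT at P7. At P0 it read −0.561, −0.597 and −0.474 in KO and 1.08, 2.12 and 0.765 in WT. It was above background on no KO array, and its differences were at least −2.84 at P7 and −1.31 at P0.

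Oas1c, which lies in the same gene block as Oas1d, fell in the KO at both ages. At P7 it read −0.453, −0.333 and −0.328 in KO and 0.971, 0.934 and 1.27 in WT. At P0 it read −0.498, −0.640 and −0.691 in KO and 0.165, 0.816 and 0.0625 in WT. The genotypes did not overlap at either age, although 1 WT P0 array stood well above the other 2. The difference was −1.43 ± 0.15 at P7 (95% interval −1.76 to −1.10, adjusted p = 7.24e-06). At P0 it was −0.96 ± 0.15 (adjusted p = 7.78e-04), or at least −0.34 against background, since no KO P0 array was above it.

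Oas1e, which lies beside Oas1c, also fell in the KO at both ages. Its probe read −0.646, −0.417 and −0.484 in KO and 1.5, 1.65 and 2.26 in WT at P7. At P0 it read −0.700, −0.515 and −0.743 in KO and 0.438, 0.744 and 0.367 in WT. No KO array of either age was above background and every WT array was. Its probe thus passed the filter through WT arrays alone, so a call between genotypes could hardly have been higher in KO. The difference was −2.32 ± 0.16 at P7 (adjusted p = 7.10e-08, at least −2.20) and −1.17 ± 0.16 at P0 (adjusted p = 2.30e-04, at least −0.51). Of the 6 member probes tested outside Oas1d, those of Oas1c and Oas1e were the 2 called at each age, both lower. Over all 23144 probes tested 27.9% were called at P7 (13.7% higher, 14.2% lower) and 17.9% at P0 (7.58% higher, 10.4% lower).

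The fall of Oas1e was larger at P7 than at P0, and this difference passed its own test. The interaction was −1.15 ± 0.23 (95% interval −1.63 to −0.66, adjusted p = 0.00598), and an interaction was called for 10.6% of all probes (5.79% higher, 4.85% lower). KO arrays were below background at both ages, and the WT mean was 1.80 at P7 and 0.52 at P0. For Oas1c the interaction was −0.47 ± 0.22 and did not pass (adjusted p = 0.175). It passed on the deposited scores (−1.0, adjusted p = 0.00514), after median scaling (−0.94, adjusted p = 0.00813), with each age normalized alone (−0.95, adjusted p = 0.00466) and without WT P0 replicate 2 (−0.71, adjusted p = 0.0102). For this gene the call thus rests on the scaling and on 1 array.

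**Figure D1:**
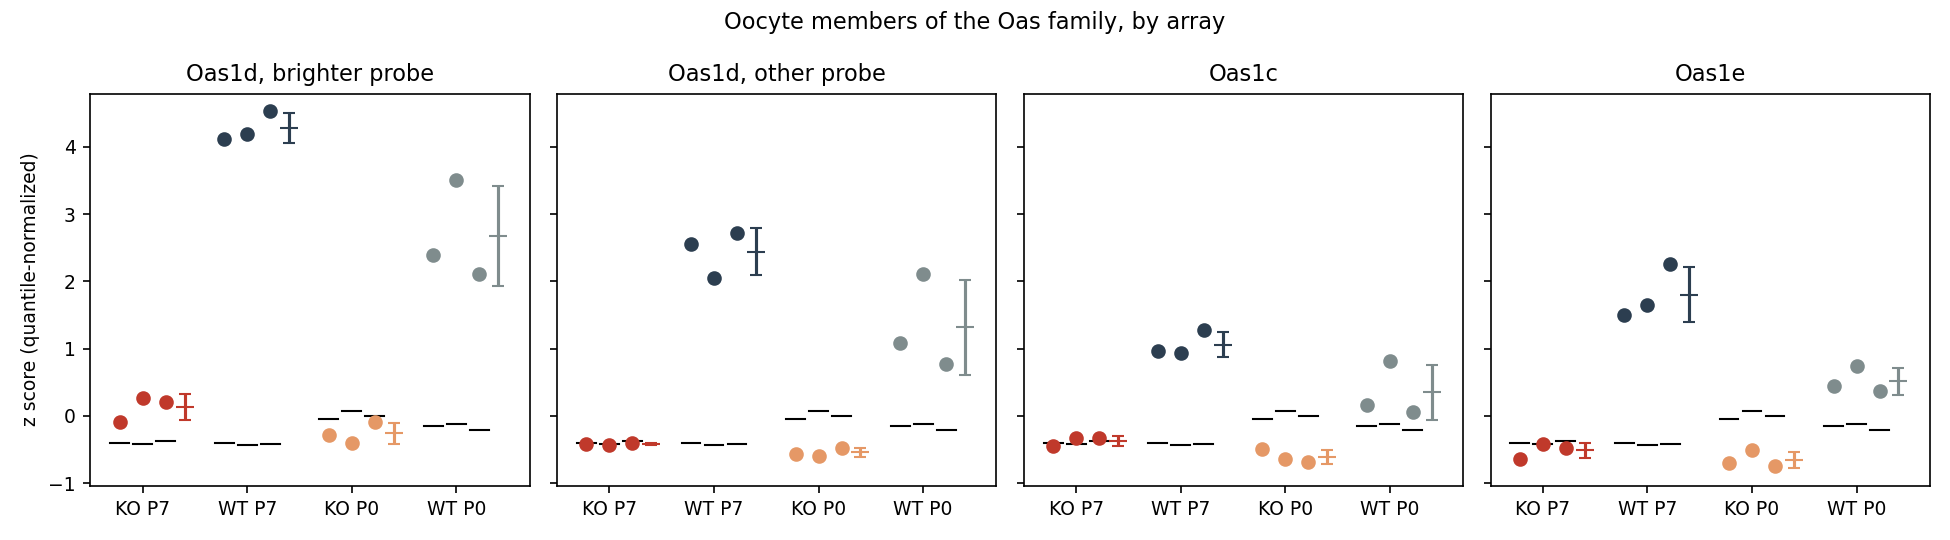
Quantile-normalized z scores (vertical axis) of both Oas1d probes, Oas1c and Oas1e on each of the 12 arrays, by group along the horizontal axis. Points are arrays, bars beside them the group mean and SD (n = 3), and short black lines each array's background level. WT points lie above KO points in every panel at both ages, from 4.11 to 4.53 in WT P7 for the brighter Oas1d probe.

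Within WT ovaries the oocyte members were higher at P7 than at P0. Oas1e rose by 1.29 ± 0.16 (adjusted p = 1.82e-05), with every P7 array above every P0 array. Oas1c rose by 0.71 ± 0.15 (adjusted p = 0.00147), also without overlap. The brighter Oas1d probe rose by 1.61 ± 0.25 (adjusted p = 1.19e-04) and the other by 1.12 ± 0.25 (adjusted p = 0.00158), with 1 P7 array of the second probe below 1 P0 array. The WT values of Oas1d are among those by which the family was chosen, and its second probe passed the filter through WT arrays alone. Its p values with age therefore rest on selected values. On the deposited scores the rise of the brighter Oas1d probe was 0.59 (adjusted p = 0.0952), and after median scaling 0.67 (adjusted p = 0.0592), so its call rests on the scaling. The P7 scores were deposited with 2 decimals and the P0 scores with up to 6, and whether the ages were processed alike is not given in the labels.

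In KO ovaries none of these 4 probes passed the same test. The brighter Oas1d probe differed by 0.39 ± 0.25 between P7 and P0 (95% interval −0.15 to 0.92, adjusted p = 0.216). It passed when only KO arrays entered the fit (adjusted p = 0.0187) and without WT P0 replicate 2 (adjusted p = 0.0305). Oas1c differed by 0.24 ± 0.15 (adjusted p = 0.213), with adjusted p = 0.0121 when only KO arrays entered. Oas1e differed by 0.14 ± 0.16 (adjusted p = 0.500). Of the 8 tested member probes 5 rose with age in WT and 2 in KO, against 50.5% of all probes called in WT (28.2% higher, 22.3% lower) and 50.8% in KO (30.7% higher, 20.1% lower). The 5 in WT include both Oas1d probes. The levels of each oocyte member ran, from high to low, WT P7, WT P0, KO P7 and KO P0, and KO P7 against KO P0 did not pass the test in any of them. WT P0 and KO P7 were not compared. The age and genotype comparisons share arrays.

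Oasl2 had 1 probe that lay above 0 on nearly every array. Mouse Oasl2 encodes an Oas-like protein with ubiquitin-like domains and is raised by interferon. Its brightest probe read 1.18, 1.39 and 1.18 in KO and 0.837, 1.03 and 0.609 in WT at P7. At P0 it read 0.784, 0.922 and −0.195 in KO and 0.449, 0.372 and 0.507 in WT. At P7 all KO arrays lay above all WT arrays, whereas at P0 KO replicate 3 lay below every WT array and the other 2 above them.

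No Oasl2 probe passed the test between genotypes. The brightest differed by 0.43 ± 0.21 at P7 (95% interval −0.02 to 0.87, adjusted p = 0.149) and by 0.06 ± 0.21 at P0 (95% interval −0.38 to 0.51, adjusted p = 0.876). Without KO P0 replicate 3 the P7 difference of 0.43 passed (adjusted p = 0.0115), and the P0 difference became 0.41 (adjusted p = 0.0418). With only P7 arrays in the fit the P7 difference also passed (adjusted p = 0.0114).

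The 2 dimmer Oasl2 probes leaned the same way at P7. The second read −0.242, −0.281 and −0.186 in KO, all above background, and −0.435, −0.436 and −0.444 in WT, none above it. Its difference was 0.20 ± 0.08 (adjusted p = 0.0771), and 5 scaling or fitting alternatives brought it past the threshold, with adjusted p from 0.00227 to 0.0219. This probe passed the filter through the 3 KO P7 arrays alone, so the filter itself favoured a higher value in KO. The third read −0.301, 0.00941 and −0.283 in KO and −0.410, −0.370 and −0.322 in WT, a difference of 0.18 ± 0.07 (adjusted p = 0.0757). It passed with each age normalized alone (0.24, adjusted p = 0.0428) and without KO P7 replicate 1 (0.23, adjusted p = 0.0413), and without single arrays it ran from 0.08 to 0.23. At P0 the second differed by 0.14 ± 0.08 (adjusted p = 0.259) and the third by −0.03 ± 0.07 (adjusted p = 0.812), both below background on every P0 array.

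With age Oasl2 rose in KO ovaries by 0.75 ± 0.21 in its brightest probe (adjusted p = 0.00785) and by 0.47 ± 0.07 in the third probe (adjusted p = 7.17e-05). Without KO P0 replicate 3 the KO rise of the brightest probe was 0.40 (adjusted p = 0.0194). In WT ovaries the third probe rose by 0.26 ± 0.07 (adjusted p = 0.00630). This call was lost on the deposited scores (0.19, adjusted p = 0.0591) and with each age normalized alone (0.15, adjusted p = 0.145). The third probe was above background on no P0 array. Its P7 means (−0.19 in KO, −0.37 in WT) lay below the background level of every P0 array of the same genotype. A rise against background was thus not shown for this probe in either genotype. The brightest differed in WT by 0.38 ± 0.21 (adjusted p = 0.142), but by 0.81 on the deposited scores (adjusted p = 6.41e-04). The levels of the brightest probe ran, from high to low, KO P7, WT P7, KO P0 and WT P0. Neither genotype pair passed the test, and WT P7 was not compared with KO P0. The interaction of age and genotype did not pass (0.37 ± 0.30, adjusted p = 0.455).

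The remaining interferon-type members were at or near background. Oasl1, which in mice holds down translation of the interferon regulator Irf7, had 1 tested probe at −0.403, −0.308 and −0.463 in KO and −0.403, −0.443 and −0.416 in WT at P7. It overlapped between genotypes and differed by 0.03 ± 0.07 at P7 (adjusted p = 0.807) and by 0.12 ± 0.07 at P0 (adjusted p = 0.256). Oas2, an antiviral synthetase, read 0.0457, −0.147 and −0.0821 in KO and −0.357, −0.164 and −0.334 in WT at P0. These arrays did not overlap, but only 1 KO P0 array was above background, and the KO P0 background levels of −0.0411 to 0.0756 were themselves above the WT P0 levels of −0.209 to −0.118. Oas1a and Oas1g, the interferon-inducible synthetases of the block, Oas3 and Oas1b, a flavivirus resistance gene in mice, ranged over their 10 probes from −0.786 to 0.0376 without any array above background. When dim probes were kept in the fit, 1 Oas1g probe was called at P0 (0.18 ± 0.05, adjusted p = 0.0479) and no other dim member probe between genotypes.

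**Figure D2:**
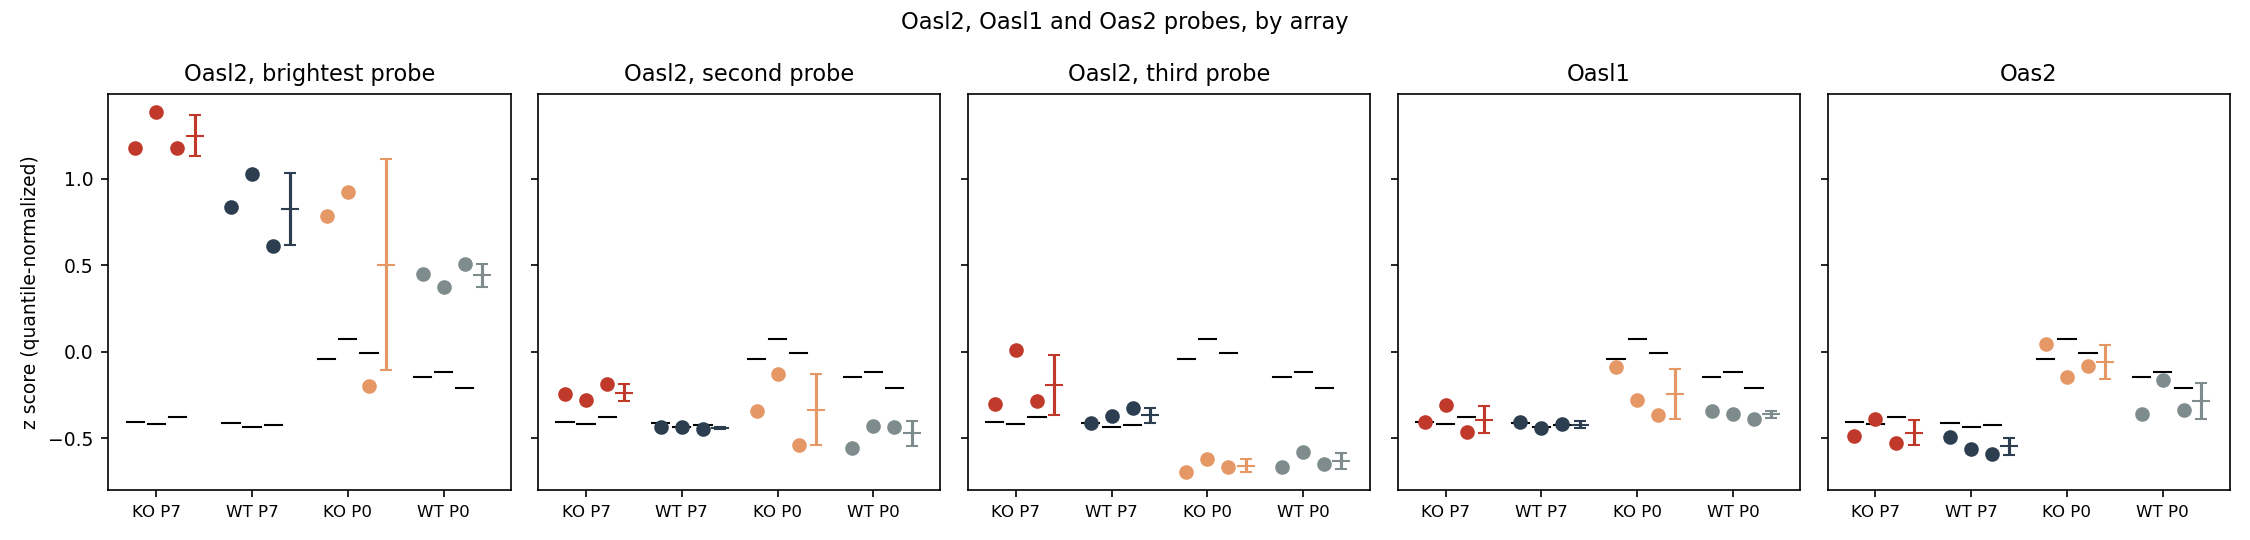
Quantile-normalized z scores (vertical axis) of the 3 Oasl2 probes, the tested Oasl1 probe and Oas2 on each array, by group along the horizontal axis. Points are arrays, bars the group mean and SD (n = 3), and short black lines each array's background level. The brightest Oasl2 probe lies at 1.18 to 1.39 in KO P7 and at 0.609 to 1.03 in WT P7, and KO P0 replicate 3 stands apart at −0.195.

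**Figure D3:**
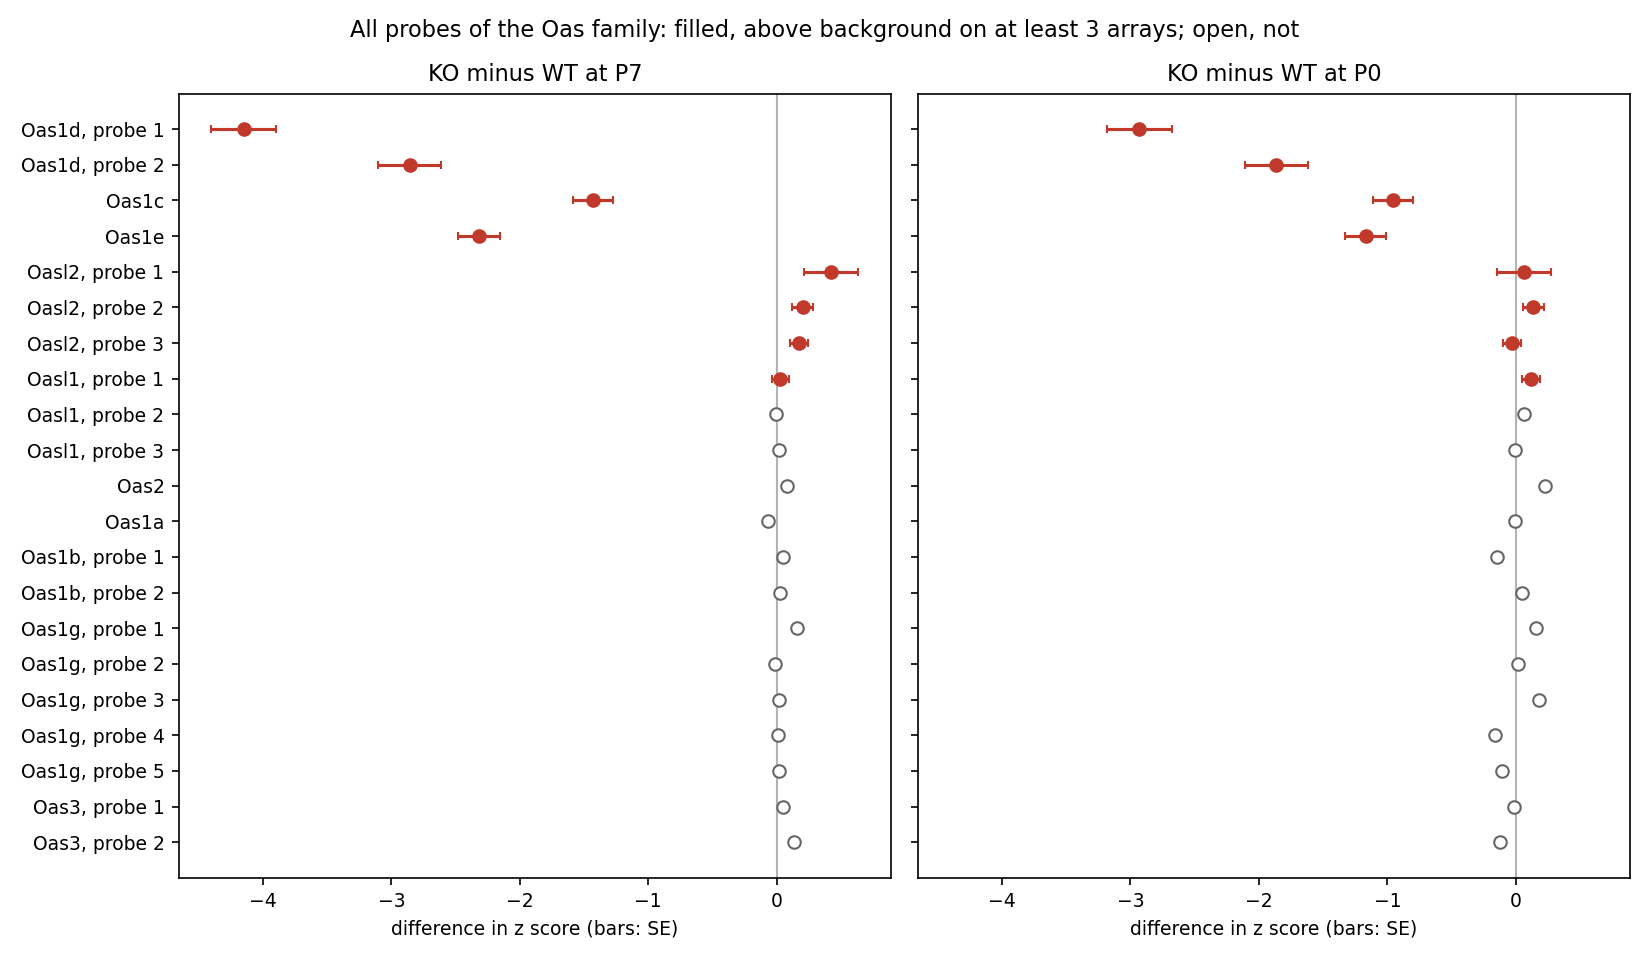
KO minus WT difference in z score (horizontal axis) at P7 (left) and P0 (right) for all 21 probes of the family (vertical axis). Filled points with SE bars passed the background filter and open points did not. The probes of Oas1d, Oas1c and Oas1e lie left of 0 and all others close to it.

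The oocyte members moved together across the arrays, and the brightest Oasl2 probe did not move with them. Over the 12 arrays the 2 Oas1d probes had Pearson's r of 0.992, the brighter Oas1d probe and Oas1c 0.986, and that probe and Oas1e 0.973. The brighter Oas1d probe and the brightest Oasl2 probe had r of −0.163. With the second Oasl2 probe the brighter Oas1d probe had r of −0.575, and with the third 0.0524. Oas1c and Oas1e had r of 0.975 with each other. The family was chosen by the values of Oas1d on these arrays. A probe high in WT and low in KO would tend to have a high r with it. These values describe 12 arrays that fall into the same 4 groups, and no p is given.

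The genes whose profile was most like that of an oocyte member included known oocyte genes. Those nearest to Oas1d were the zona pellucida gene Zp3 (r = 0.996), the oocyte NLRP gene Nlrp14 (0.996), the zinc transporter gene Slc30a3 (0.992), Slc38a8 (0.989) and Ftdc2 (0.988). Zp3 averaged −0.107 in KO and 4.29 in WT at P7, and −0.430 in KO and 2.39 in WT at P0, which is close to the course of Oas1d. Because the family was chosen by the lower values of Oas1d in KO on these arrays, this ranking favours genes with the same contrast. It is a description and not a test. Those nearest to Oas1e were Omt2b (0.996), the oocyte linker histone gene H1f8 (0.990), Omt2a (0.989), Cpsf4l (0.989) and Fbxw18 (0.988). Those nearest to Oas1c were Fbxw26 (0.988), Nlrp14 (0.988), Cd177 (0.984), the zona pellucida gene Zp1 (0.984) and Map3k6 (0.983). Oasl2 had less close neighbours, Ppp5c (0.95), Zfp760 (0.939), Galns (0.937), Glrx2 (0.933) and Pcdh12 (0.931), none of them an interferon-stimulated gene on the list used below.

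The falls of Oas1c and Oas1e, and the lower values of Oas1d in KO, went along with a fall of most listed oocyte growth genes. Of 24 tested oocyte growth genes, 23 fell and none rose at P7 (median −3.03), and 21 fell and none rose at P0 (median −1.26). Lhx8 itself is among those that fell at both ages. The list was chosen with earlier results of these data known. A listed gene below background on KO arrays could pass the filter through WT arrays alone, which favours a fall. The counts therefore describe the list and do not test it. Over all 12215 genes, at 1 probe each, 14.9% fell at P7 and 10.7% at P0 (31.7% and 19.7% called in either direction), with medians of 0.04 and 0.01. Gdf9, an oocyte growth factor gene, differed by −4.77 ± 0.22 at P7 and −3.05 ± 0.22 at P0, and Zp3 by −4.40 ± 0.24 and at least −2.38. The summed level of the list ran from 6.57 to 9.63 in KO and 72.6 to 77.9 in WT at P7, and from 9.69 to 15.8 in KO and 46.7 to 59.9 in WT at P0. Of 11 tested pan germ cell genes 10 fell and 1 rose at P7, and 5 fell and 3 rose at P0. The part that oocyte number has in the lower levels of Oas1c, Oas1d and Oas1e in KO was not tested.

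**Figure D4:**
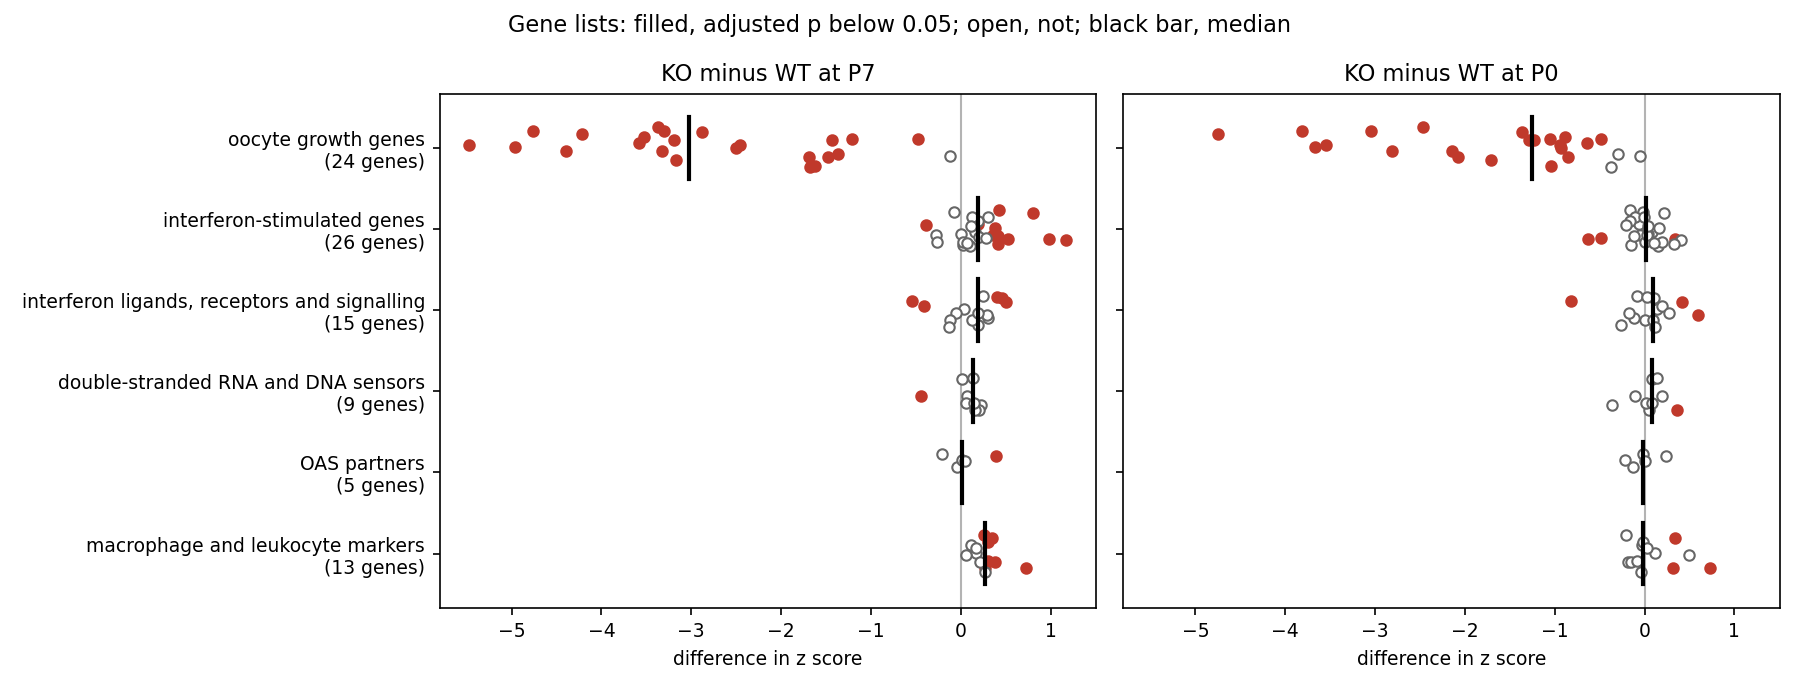
KO minus WT difference in z score (horizontal axis) at P7 (left) and P0 (right) for the tested genes of 6 lists (vertical axis), 1 probe per gene. Filled points have an adjusted p below 0.05, open points do not, and black bars are list medians. The oocyte growth genes lie left of 0 with medians of −3.03 and −1.26, and the medians of the other lists lie within 0.27 of 0.

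Among 5 tested partners of the pathway Eif2ak2, which encodes the double-stranded RNA-activated kinase PKR, rose at P7 (0.40 ± 0.12, adjusted p = 0.0240) and none changed at P0 (limma, 0 of 5 also at an unadjusted p below 0.05), against 31.7% of all genes called at P7 and 19.7% at P0. The call of Eif2ak2 was kept under 17 of 23 alternatives (0.31 to 0.47, adjusted p up to 0.113, without KO P7 replicate 2). Pde12, whose enzyme degrades 2′-5′-oligoadenylates, differed by −0.21 ± 0.09 at P7 (adjusted p = 0.0837) and −0.02 ± 0.09 at P0 (adjusted p = 0.889). Abce1, which encodes a ribosome recycling factor, differed by −0.04 ± 0.17 at P7 (adjusted p = 0.906), Adar, which edits double-stranded RNA, by 0.02 ± 0.12 (adjusted p = 0.933) and Zc3hav1 by 0.05 ± 0.08 (adjusted p = 0.702). The paralogues Oas1f and Oas1h were not above background on 3 arrays and were not tested.

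Interferon-stimulated genes were more often higher than lower in KO ovaries at P7. Of 26 tested, 10 rose and 1 fell (median 0.19), whereas over all genes 16.8% rose. The largest rises were in Ifi27 (1.17 ± 0.18, adjusted p = 2.50e-04), the guanylate-binding protein gene Gbp2 (0.98 ± 0.12, adjusted p = 3.20e-05), the membrane restriction factor gene Ifitm3 (0.80 ± 0.12, adjusted p = 1.86e-04) and the GTPase gene Igtp (0.53 ± 0.09, adjusted p = 4.33e-04). Nlrc5 was the one that fell (−0.39 ± 0.09, adjusted p = 0.00463, at least −0.21). The count of rises was 6 without KO P7 replicate 1 or without KO P7 replicate 2. Another 11 listed genes on the array, among them Ifit1, Irf7, Mx1 and Cxcl10, were not tested because they were too dim.

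At P0 the same list showed 1 rise, in Igtp (0.34 ± 0.09, adjusted p = 0.0175), and 2 falls, in Gbp2 (−0.63 ± 0.12, adjusted p = 0.00314) and Gbp3 (−0.48 ± 0.11, adjusted p = 0.00982), with a median of 0.01, against 9.03% of all genes rising. The difference between the ages passed its own test for Gbp2 (1.61 ± 0.17, adjusted p = 6e-05), Gbp3 (0.77 ± 0.16, adjusted p = 0.00834) and Ifitm3 (0.58 ± 0.17, adjusted p = 0.0433). That of Ifitm3 kept its call under 10 of 22 alternatives (0.34 to 0.67, adjusted p up to 0.225). Igtp at P0 kept its call under 19 of 23 (adjusted p up to 0.18) and Gbp3 at P0 under 22 of 23 (up to 0.0574). Over all genes 11.8% had a called interaction (6.48% higher, 5.36% lower). Gbp2 thus moved in opposite directions at the 2 ages. With age the list showed 11 rises and 1 fall in KO ovaries, and 5 rises and 5 falls in WT ovaries, against 49.6% of all genes called in KO (27.9% higher, 21.7% lower) and 49.8% in WT (25.1% higher, 24.8% lower).

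Markers of macrophages and other leukocytes moved in the same direction at P7. Of 13 tested, 7 rose and none fell (median 0.27), against 16.8% of all genes rising at P7 and 9.03% at P0. Among them were Laptm5 (0.73 ± 0.15, adjusted p = 0.00158), Coro1a (0.38 ± 0.12, adjusted p = 0.0231), Aif1 (0.34 ± 0.08, adjusted p = 0.00410) and Tyrobp (0.31 ± 0.09, adjusted p = 0.0156), with the call of Coro1a kept under 19 of 23 alternatives and that of Tyrobp under 21. Their summed level ran from 2.76 to 4.19 in KO and −0.23 to 0.22 in WT at P7. At P0, where 3 rose and none fell, it ran from 0.97 to 4.96 in KO and 1.32 to 1.89 in WT. Ptprc, Itgam, Cd3e and Nkg7 were not above background on 3 arrays. The count of rises at P7 lay between 2 and 5 without any 1 of the 6 P7 arrays, with 2 without KO P7 replicate 2. Stromal and smooth muscle markers also rose at P7 (7 of 11, none fell, median 0.73). Of 17 granulosa cell markers 4 rose and 8 fell. The part of leukocytes in the level of Oasl2 or of the interferon-stimulated genes was not tested.

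Of 15 tested interferon ligand, receptor and signalling genes, 3 rose and 2 fell at P7, and 2 rose and 1 fell at P0, close to the 31.7% and 19.7% of all genes called. Ifngr2, a chain of the interferon gamma receptor, rose at both ages (0.51 ± 0.10 at P7, adjusted p = 0.00127, and 0.41 ± 0.10 at P0, adjusted p = 0.0102). The kinase gene Jak2 fell at both (−0.54 ± 0.13, adjusted p = 0.00618, and −0.82 ± 0.13, adjusted p = 7.73e-04). At P7 the interferon regulatory factor gene Irf3 rose (0.46 ± 0.14, adjusted p = 0.0227) and Irf1 fell (−0.41 ± 0.10, adjusted p = 0.00765), and at P0 Irf2 rose (0.60 ± 0.15, adjusted p = 0.0123). Of 23 alternatives each, Irf3 kept its call under 18, Irf1 under 21 and Irf2 under 20. The interferon genes Ifnb1, Ifng, Ifne and Ifnk, and the receptor gene Ifnar1, were too dim to test.

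Of 9 tested sensors of nucleic acids 1 was called at each age, against 31.7% of all genes called at P7 and 19.7% at P0. The DNA sensor gene Cgas fell at P7 (−0.44 ± 0.13, adjusted p = 0.0169), and the adaptor gene Ticam1 rose at P0 (0.36 ± 0.10, adjusted p = 0.0260). Cgas kept its call under 21 of 23 alternatives and Ticam1 under 16 of 22 (0.19 to 0.48, adjusted p up to 0.134). The double-stranded RNA sensor genes Ifih1, Dhx58 and Tlr3 were too dim to test. Of 9 genes of Dicer and small RNA processing, which handles double-stranded RNA in mouse oocytes, 2 fell at P7 and 3 at P0 and none rose, against 14.9% and 10.7% of all genes falling. Dicer1 fell by 0.72 ± 0.17 at P7 (adjusted p = 0.00490) and by 0.98 ± 0.17 at P0 (adjusted p = 0.00126). Drosha fell by 0.36 ± 0.10 (adjusted p = 0.0150) and 0.64 ± 0.10 (adjusted p = 6.19e-04), and Ago4 by 0.27 ± 0.08 at P0 (adjusted p = 0.0284). Drosha at P7 kept its call under 17 of 23 alternatives (adjusted p up to 0.112) and Ago4 under 15 of 23 (−0.32 to −0.14, adjusted p up to 0.349).

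Among other cell markers, over all genes 16.8% rose and 14.9% fell at P7, and 9.03% rose and 10.7% fell at P0. Of 11 stromal and smooth muscle markers 7 rose at P7 and 1 at P0 and none fell. Of 17 granulosa cell markers 4 rose and 8 fell at P7, and at P0 limma called none (1 at an unadjusted p below 0.05). Of 10 endothelial markers 2 rose at P7 and 3 at P0, a P0 count that ran from 0 to 5 over the alternatives. Of 2 tested markers of plasmacytoid dendritic and natural killer cells limma called none at P7 (1 at an unadjusted p below 0.05) and 1 (Siglech, 0.36 ± 0.09, adjusted p = 0.0147, a call kept under 18 of 23 alternatives) rose at P0.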

How the data were processed

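Ovary RNA was measured on 12 Illumina BeadChips. The submitters' processing notes name GenomeStudio 2011.1. The authors deposited scores that centre each array on 0 with an SD of 1, with up to 6 decimals at P0 and 2 at P7. The labels and headers do not say whether logs were taken before scaling or how background was handled. The planned test expected log2 bead signals; the scores took their place, with no further log. A further 48 columns name a genotype and an animal but match no single sample, and were not used. Groups came from sample titles, and the labels' protocols describe 3 animals per genotype as biological replicates.

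Scores were quantile-normalized over the 12 arrays. Probes above the 95th percentile of 1523 olfactory and related receptor probes, taken to be silent in ovary, on at least 3 arrays were tested (23144 of 45281). Of all probes 34885 had 1 gene symbol, 18 several (not named) and 10378 none, in a platform annotation updated through RefSeq. Differences were tested per probe with limma 3.58.1 in R 4.3.3 (lmFit, then eBayes with a variance trend), fitting all 4 groups together (8 residual degrees of freedom), adjusted by Benjamini-Hochberg over all tested probes at 0.05. The steps were tested on simulated data. The number of arrays limits the precision, and an exact permutation test of 3 against 3 cannot go below 0.1. Where the lower group was below background on every array, the difference is also given as a bound against the background level ("at least").

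The members and lists were chosen with earlier results of these data known. In each list a gene stood for its tested probe with the highest mean. All member probes are named; in each list and comparison the rule allowed at most 4 called genes with the largest differences, plus Lhx8, Pde12, Abce1, Eif2ak2, Adar, Oas1f and Oas1h. Zc3hav1 and the genes named as too dim lie outside the rule and were chosen after their values were seen. Likeness is Pearson's r over 12 arrays, with the 5 nearest genes named. One further gene of the rule is not reported here. The design had planned a comparison of protein sequences, which was not run. Alternatives were the deposited scores, median scaling, quantile normalization within each age, other filters, 1 probe per gene, only the arrays compared, array weights, no trend, a replicate block and leaving out each array.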

Additional observations from a re-analysis of the deposited data

Results flagged for a closer look

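The difference of Oas1e between KO and WT ovaries was itself different at the 2 ages by a test of that difference. The P7 difference minus the P0 difference was −1.15 ± 0.23 z units (limma adjusted p = 0.00598, n = 3 arrays per group). Oas1e averaged −0.52 in KO and 1.80 in WT at P7, and −0.65 in KO and 0.52 in WT at P0. No KO array of either age was above background, and the probe passed the filter through WT arrays alone. The value thus rests on the higher WT level at P7, and a change within KO could not be measured. Over all alternatives the value ran from −1.58 to −0.92, with adjusted p from 8.49e-05 to 0.0207.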

How the results depend on the processing

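The falls of Oas1c and Oas1e in KO ovaries kept their direction and their call at both ages under all 23 alternatives. The Oas1e probe passed the background filter through WT arrays alone. Oas1c ran from −1.74 to −1.32 at P7 and −1.10 to −0.72 at P0, and Oas1e from −2.48 to −2.09 and −1.25 to −0.91. Outside Oas1d, 2 member probes were called at P7, and 4 with quantile normalization within each age, with only the arrays compared and with array weights. Leaving out single arrays gave 2 to 4 at P7 and 2 to 4 at P0, with 4 at both ages without KO P0 replicate 3. With age, 2 member probes were called in KO, both higher, against 6 with no filter (3 higher, 3 lower). The KO count was 1 with background at the 99th percentile, 1 with 1 probe per gene and 4 with only the arrays compared. In WT 5 were called, all higher, against 12 with no filter (6 higher, 6 lower) and 3 with 1 probe per gene. For the interaction 1 was called, against 2 on the deposited scores, after median scaling and within each age, and 1 to 2 when single arrays were left out, with 2 without WT P0 replicate 2.

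The P7 difference of the brighter Oas1d probe was −3.22 on the deposited scores, −3.21 after median scaling and −3.35 within each age. Its P0 difference ran from −3.21 to −2.51 and that of the other probe from −2.14 to −1.47 when single arrays were left out. The P7 difference minus the P0 difference of the brighter probe was −0.17 on the deposited scores, −0.11 after median scaling and −0.30 within each age, and from −1.64 to −0.94 when single arrays were left out. That of the other probe ran from −1.39 to −0.72. The cause was not tested.

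Over all probes 6462 were called at P7 between genotypes, against 4031 with 1 probe per gene and 10331 with array weights. At P0 4150 were called, against 2624 with 1 probe per gene and 1847 with only the arrays compared, and 2789 to 4263 when single arrays were left out. With age 11752 were called in KO and 11697 in WT, against 18864 and 19136 with no filter and 6049 and 6091 with 1 probe per gene. The interaction was called for 2464 probes, against 1587 with 1 probe per gene and 1434 to 2789 when single arrays were left out. It was 1434 without KO P7 replicate 1 and 1522 without KO P7 replicate 2, and 1637 without WT P7 replicate 2. Fewer probes enter the fit with 1 probe per gene and more with no filter.

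The share of calls that were higher moved with the scaling. At P7 between genotypes it was 49.1%, but 34.9% on the deposited scores and 37.6% after median scaling, and at P0 42.3%, but 28.3% and 17.0%. With age in KO it was 60.4%, but 84.6% after median scaling, 72.5% within each age and 49.2% with no filter. With age in WT it was 55.8%, but 73.0% on the deposited scores, 81.5% after median scaling and 70.6% within each age. For the interaction it was 54.4%, but 39.4% on the deposited scores.

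The replicate numbers were not used to pair the arrays. Same-numbered arrays had deviations that correlated with r from −0.158 to 0.143, which shows no strong shared effect but cannot exclude a pairing. With the replicate block 6336 probes were called at P7 and 3950 at P0 between genotypes, 11637 in KO and 11549 in WT with age, and 2287 for the interaction. It left every member probe on the same side of the threshold.

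Low signal is a limit for the family: 12 of its 21 probes were never above background, and no statement on the level of Oas1a, Oas1b, Oas1g or Oas3 can be made. The motif search over the bases before the start alone gave the interferon core in 2.98% of windows.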

Other observations

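Of the 24 tested oocyte growth genes, 4 rose and 9 fell between P0 and P7 in KO ovaries, and 16 rose and 4 fell in WT ovaries, against 27.9% of all genes rising in KO and 25.1% in WT. Of the 11 tested pan germ cell genes none rose and 8 fell with age in KO ovaries, and 1 rose and 5 fell in WT ovaries, against 21.7% of all genes falling in KO and 24.8% in WT. Of the 17 tested granulosa cell markers 10 rose and 2 fell with age in KO ovaries, and 10 rose and 4 fell in WT ovaries.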
